A study of Mus musculus with 17 samples.

Results

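The genes described here, 10 in number, mark T cells and cytotoxic lymphocytes in the mouse colon. They are Cd3e, Cd3g, Cd4, Cd8a, Itgae, Gzma, Gzmb, Ccl5, Cd5 and Foxp3, and they were chosen by name. They are 10 of the 37008 gene names on the array and have 15 of its 56605 probes, of which 14 were tested. For each gene the probe with the highest mean log2 value in the authors' table was used, and all 10 of these probes were tested.

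RNA of the whole colon was hybridized, 1 colour and 1 sample per array, on 17 arrays of male mice on the C57Bl6/J background. WT mice (wild-type) were bought at 6 weeks of age and Pxr-/- mice, which lack the pregnane X receptor PXR (gene Nr1i2), came from a colony kept in house for 10 years, and both were given 2 weeks to adapt, so that genotype and origin of the animals cannot be told apart. The age of the Pxr-/- mice is not given in the sources used here. PCN (pregnenolone 16α-carbonitrile), which activates the PXR of rodents, was injected intraperitoneally at 100 mg/kg in corn oil once a day for 4 days, CONT mice received the oil without PCN, and fed mice were killed 6 h after the last injection. Pxr-/- CONT had 5 arrays and each of the other groups (WT CONT, WT PCN and Pxr-/- PCN) had 4, numbered as in the labels, with 2 to 5 in WT CONT. The labels limit the deletion to no cell type.

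Arrays that stood apart are given before the results. The arrays labelled WT PCN 3 and Pxr-/- CONT 2 were near-identical, with an SD of 0.198 for their log2 differences over 38646 probes. So were the arrays labelled WT PCN 4 and Pxr-/- PCN 2, with an SD of 0.172, whereas the other 134 pairs of arrays had SDs of 0.297 to 0.616. The labels of these arrays were kept, and each comparison is given with all 17 arrays and without these 4. The probe of Nr1i2, whose place relative to the deleted part is not given in the sources used here, read 11.10 and 11.15 on the arrays labelled WT PCN 3 and 4, 11.85 to 12.44 on the other 6 WT arrays and 10.39 to 11.93 on the 9 Pxr-/- arrays. Pancreas genes, which code for digestive enzymes, had a mean log2 signal of 11.36 to 17.61 on 4 arrays (WT CONT 4, WT PCN 1, WT PCN 3 and Pxr-/- CONT 2) and of 6.53 to 6.99 on the other 13. Liver genes had a mean log2 signal of 12.09 in WT CONT 5, 9.55 in WT PCN 1 and 9.14 in WT PCN 2, and of 6.07 to 7.38 on the other 14 arrays. Hoxb13, a homeobox gene of the distal gut, read 7.53 in Pxr-/- PCN 4 and 12.88 to 16.09 on the other 16 arrays. Colonocyte markers had a mean log2 signal of 14.98 to 15.45 on all arrays. Single markers ranged more widely, as Aqp8 read 13.10 to 16.64 and Cdx2 11.77 to 14.67. Whether all samples came from the same part of the gut was not tested. Between 62.7% and 71.0% of spots per array were well above the background and no spot was saturated.

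T cells recognise antigen through a receptor that signals by the CD3 chains, encoded by Cd3e and Cd3g among others. Conventional T cells carry either CD4, which marks helper and, with the factor FOXP3, regulatory cells, or CD8, which marks cytotoxic cells. In the intestine many T cells lie between the epithelial cells. These intraepithelial lymphocytes are rich in CD8, are held by the integrin CD103 (αE, encoded by Itgae) that binds E-cadherin, and store granzymes, proteases that kill target cells. CCL5 is a chemokine made by effector T cells, and CD5 is a surface protein that dampens signals of the receptor. In whole tissue, fewer cells of a type and less RNA per cell cannot be told apart.

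Sequences are printed for Itgae, whose used probe spans an intron and so reads spliced RNA, and for the stretch before the start of both granzyme genes, whose signals followed each other closely. The Itgae probe lies at chr11:72959105-72960563 of mm9 on the plus strand, where its 60 bases span 1459 bases of the genome.
Itgae probe: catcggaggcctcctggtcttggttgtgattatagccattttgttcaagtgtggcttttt
The used probe of Gzma lies on chromosome 13 from 113884035 to 113884094 and that of Gzmb on chromosome 14 from 56877916 to 56877975, both in mm9. RefSeq promoter windows of GRCm38.p6, which run from 250 bases before to 50 after the start, were found for 7 of the 10 genes (8 windows) and not for Cd4, Itgae and Ccl5. The 250 bases before the start are shown for Gzma (chr13:113100982-113101231) and Gzmb (chr14:56262335-56262584), both 5′ to 3′ on the minus strand. Capitals mark TGTGGT, the core of the sites bound by RUNX factors, or its reverse complement ACCACA.
Gzma promoter: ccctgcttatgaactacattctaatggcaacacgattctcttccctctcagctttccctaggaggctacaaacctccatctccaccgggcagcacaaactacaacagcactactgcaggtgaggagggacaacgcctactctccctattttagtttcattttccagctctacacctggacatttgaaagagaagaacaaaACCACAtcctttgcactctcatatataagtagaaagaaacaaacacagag
Gzmb promoter: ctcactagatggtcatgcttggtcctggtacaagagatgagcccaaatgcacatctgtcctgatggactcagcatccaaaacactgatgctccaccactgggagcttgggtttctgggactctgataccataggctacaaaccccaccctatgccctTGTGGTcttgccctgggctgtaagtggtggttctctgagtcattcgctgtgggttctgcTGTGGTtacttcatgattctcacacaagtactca
On either strand, TGTGGT was found in 2 of the 8 windows, once in that of Gzma (50 bases before the start) and at 2 places in that of Gzmb (93 and 34 bases before it), against 16.8% of 32851 windows. AGTTCA, a hexamer that nuclear receptors such as PXR can bind, was found in 3 of the 8 windows (Cd5, Foxp3 and Gzma) against 14.0% of all. GGAAGT, of the ETS type, was found in 2 (Cd3e and Cd5) against 23.8%. These matches describe letters in a window and not bound sites.

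Gzma, Ccl5 and Gzmb varied most of the 10 genes within groups. Values of single arrays are given in the order of their replicate numbers. The log2 signal of Gzma, which codes for granzyme A, was 9.63, 9.60, 9.44 and 10.76 in WT CONT, 10.41, 8.98, 11.33 and 11.63 in WT PCN, 9.67, 11.39, 10.05, 10.91 and 9.36 in Pxr-/- CONT and 10.47, 11.52, 8.55 and 11.76 in Pxr-/- PCN. That is a 9.28-fold range over arrays, and the array with the highest and the array with the lowest signal were both in Pxr-/- PCN. For Gzmb, which codes for granzyme B, the log2 signal was 7.40, 7.18, 6.87 and 7.60 in WT CONT, 7.59, 6.96, 8.07 and 8.27 in WT PCN, 7.03, 8.02, 7.54, 8.19 and 6.51 in Pxr-/- CONT and 7.38, 8.23, 6.49 and 8.78 in Pxr-/- PCN. All groups overlapped for both granzymes. With n = 4 per group, and n = 5 for the oil-treated Pxr-/- mice, the group means ± SD of Gzma were 9.86 ± 0.61 in WT CONT, 10.59 ± 1.19 in WT PCN, 10.27 ± 0.85 in Pxr-/- CONT and 10.58 ± 1.46 in Pxr-/- PCN. Those of Gzmb were 7.26 ± 0.31 in WT CONT, 7.72 ± 0.58 in WT PCN, 7.46 ± 0.70 in Pxr-/- CONT and 7.72 ± 1.00 in Pxr-/- PCN. Within groups the SD was 1.06 for Gzma and 0.70 for Gzmb, above that of 99.1% and 97.4% of the probes tested, whose median SD was 0.173.

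Ccl5 had the widest range of the 10 genes, 10.5-fold over arrays. Its log2 signal was 11.17, 10.96, 10.54 and 11.85 in WT CONT, 11.38, 9.95, 12.46 and 12.78 in WT PCN, 11.64, 12.47, 11.88, 12.55 and 11.61 in Pxr-/- CONT and 11.64, 12.84, 10.79 and 13.34 in Pxr-/- PCN. The lowest values were in WT PCN 2, WT CONT 4 and Pxr-/- PCN 3, and the groups overlapped. The means ± SD were 11.13 ± 0.55 in WT CONT, 11.64 ± 1.28 in WT PCN, 12.03 ± 0.45 in Pxr-/- CONT and 12.15 ± 1.16 in Pxr-/- PCN, in rising order. The within-group SD was 0.91, above that of 98.6% of the probes. The log2 signal of Cd8a, which codes for the α chain of CD8, was 5.94, 5.90, 5.60 and 6.18 in WT CONT, 6.22, 5.55, 6.41 and 6.90 in WT PCN, 6.48, 6.62, 6.53, 7.08 and 6.01 in Pxr-/- CONT and 6.54, 7.04, 5.83 and 7.83 in Pxr-/- PCN. Of the Pxr-/- CONT arrays, 4 lay above every WT CONT array, but Pxr-/- CONT 5 (6.01) was below WT CONT 5 (6.18). The means ± SD were 5.90 ± 0.24 in WT CONT, 6.27 ± 0.56 in WT PCN, 6.54 ± 0.38 in Pxr-/- CONT and 6.81 ± 0.84 in Pxr-/- PCN. The range of Cd8a was 4.86-fold, and 32.5% of its variance lay between groups, the largest share of the 10 genes, against 8.74% for Gzma. Itgae ranged less, 2.27-fold, between 7.28 (WT PCN 2) and 8.47 (Pxr-/- PCN 4).

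Among the genes of T cells in general, Cd3g had a 4.27-fold range. Its log2 signal was 7.69, 7.64, 7.21 and 8.39 in WT CONT, 7.71, 7.01, 8.19 and 8.39 in WT PCN, 7.92, 8.20, 8.07, 8.24 and 7.80 in Pxr-/- CONT and 7.99, 8.59, 7.25 and 9.10 in Pxr-/- PCN. Pxr-/- PCN 4 was again the highest and WT PCN 2 the lowest array. Cd3e, which codes for another chain of the same complex, covered a range of 1.96-fold, with log2 signals of 9.92, 9.89, 10.15 and 10.30 in WT CONT, 10.47, 9.65, 9.98 and 10.15 in WT PCN, 9.98, 9.92, 9.50, 9.67 and 9.67 in Pxr-/- CONT and 9.80, 9.99, 9.57 and 10.47 in Pxr-/- PCN. The 3 lowest Pxr-/- CONT arrays lay below every WT CONT array, and the other 2 lay within them. The means ± SD of Cd3e were 10.07 ± 0.19 in WT CONT, 10.06 ± 0.34 in WT PCN, 9.75 ± 0.20 in Pxr-/- CONT and 9.96 ± 0.38 in Pxr-/- PCN. Cd5 covered 3.51-fold, from 6.62 in WT PCN 2 to 8.43 in WT CONT 5.

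Cd4 and Foxp3 had the narrowest ranges of the 10 genes. Against all probes Cd4 varied little, while the spread of Foxp3 was near the median. The log2 signal of Cd4 was 9.18 to 9.54 over the 17 arrays, a range of 1.28-fold, with a within-group SD of 0.10 that was above that of 11.8% of probes. Foxp3 lay between 5.70 and 6.29, a range of 1.5-fold, with a within-group SD of 0.18 (52.5% of probes). CD4 is also made by macrophages, and levels of different probes were not compared.

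**Figure D1:**
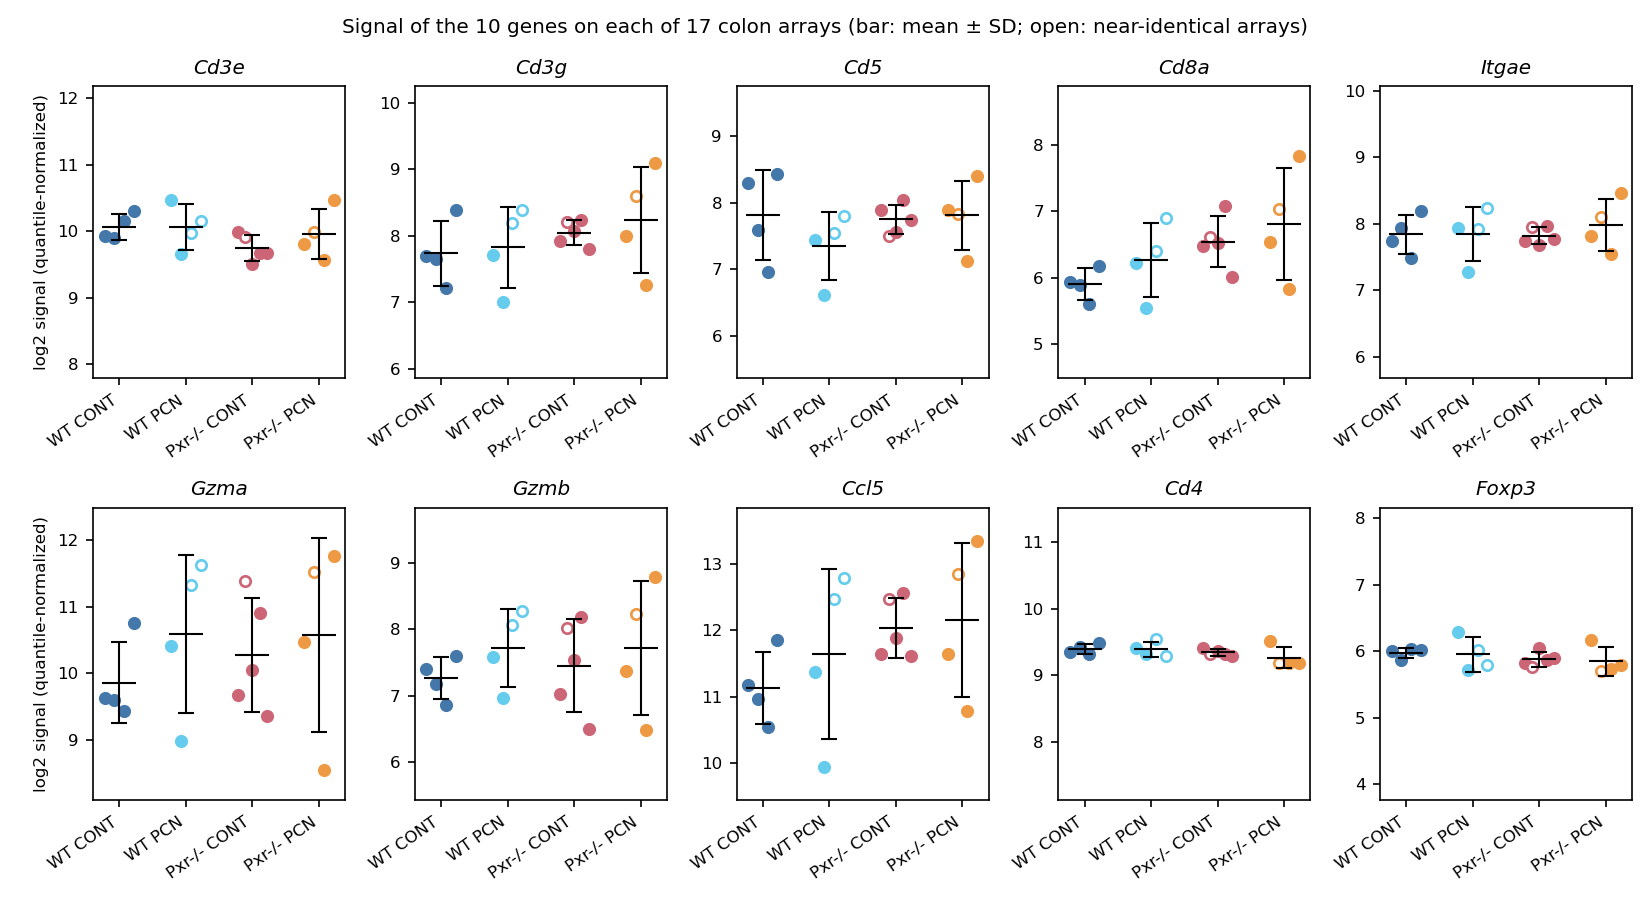
Log2 signal (y axis, quantile-normalized, the same span of values in each panel) of the 10 genes by group (x axis). Points are arrays, open points the 4 near-identical arrays, and bars the mean and SD (n = 4, 4, 5 and 4). Gzma and Ccl5 spread over 3 log2 units or more and Cd4 over 0.36.

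The first question was whether PCN changed these genes in WT mice. None of the 10 genes was called (FDR at most 0.05 and fold change over 1.5, limma with Benjamini-Hochberg adjustment over 38703 probes), and of all probes 0% were called. No gene had an unadjusted p under 0.05 either, against 4.66% of probes. Gzma differed by 0.79 on the log2 scale (SE 0.72, 95% interval -0.74 to 2.32, limma adjusted p = 0.956), Ccl5 by 0.52 (SE 0.62, interval -0.79 to 1.84) and Gzmb by 0.44 (SE 0.47, interval -0.57 to 1.45). Each of these intervals reached past a 2-fold rise, and none past a 2-fold fall. Of the 10 differences, 9 were above 0 (49.9% of probes), with a median of 0.10 against -0.00013 over all probes, and the genes were not separated between the groups (1.36% of probes were wholly higher and 1.29% wholly lower under PCN). Within the wash baths (the bath in which arrays were washed, a technical batch) Gzma differed by 1.03 in bath 1 and by 0.31 in bath 2, where WT PCN had 1 array. In bath 1 the near-identical WT PCN 3 and 4 read 11.33 and 11.63. The remaining WT PCN array of that bath, WT PCN 2, read 8.98, below WT CONT 2 and 3 (9.63 and 9.60).
Without the 4 near-identical arrays, 7 of the 10 differences turned from above to below 0, those of Gzma and Ccl5 among them, while those of Gzmb and Foxp3 stayed above 0 and that of Cd5 stayed below. The difference was then -0.17 for Gzma (SE 0.73), -0.47 for Ccl5 (SE 0.62), 0.012 for Gzmb (SE 0.58) and -0.79 for Cd5 (SE 0.42, against -0.44 with 17 arrays), 2 of 10 differences were above 0 (48.9% of probes), and the median was -0.10. No gene was called with these 13 arrays (0.0491% of probes were), and none had an unadjusted p under 0.05 (4.68% of probes). WT PCN then held 2 arrays, of which WT PCN 2 was the lowest of all arrays for Ccl5, Cd3g, Cd5, Cd8a and Itgae.

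In Pxr-/- mice, none of the 10 genes was called for PCN (0.00517% of all probes were called), and none had an unadjusted p under 0.05, against 7.35% of probes. The differences lay between -0.07 (Cd4, SE 0.08) and 0.33 (Gzma, SE 0.67), with a median of 0.18, and 8 of 10 were above 0 (52% of probes). No gene was separated between the groups (1.38% of probes were wholly higher and 1.42% wholly lower). Within the wash baths the granzymes went opposite ways, as Gzma differed by -0.44 in bath 1 and by 0.98 in bath 2, and Gzmb by -0.51 and 0.90. Gzma read 8.55 in Pxr-/- PCN 3 and 11.76 in Pxr-/- PCN 4, so that the group spanned more than any difference between groups. Without Pxr-/- PCN 4, the array with the low Hoxb13 signal, the median was -0.09 and no gene was called. The part of the gut region in these values was not tested. Without the 4 near-identical arrays the median was 0.08 with 6 of 10 above 0 (52.6% of probes), no gene was called (0.0517% of probes were), and none had an unadjusted p under 0.05 (7.19% of probes). Of the smooth muscle markers, 8 of 8 were below 0 in this comparison with 17 arrays (median -0.42, 6 with an unadjusted p under 0.05, none called). Of the mast cell genes 7 of 8 were above 0 (median 0.67, 4 with an unadjusted p under 0.05, none called), and of the plasma cell genes 5 of 7 were below 0 (median -0.61, 4 with an unadjusted p under 0.05, none called). The part of these cell types in the values of the 10 genes was not tested.

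Between genotypes under CONT, none of the 10 genes was called (0% of all probes). Ccl5 differed by 0.90 (Pxr-/- minus WT, SE 0.58, interval -0.33 to 2.13, limma adjusted p = 0.526), and the difference was 1.15 within wash bath 1 and 0.71 within wash bath 2. Cd8a differed by 0.64 (SE 0.35, interval -0.10 to 1.38), with 0.89 and 0.48 within the baths. Neither passed the test, and their intervals included 0. Cd3e was the sole gene with an unadjusted p under 0.05, which 12.7% of probes also had. It differed by -0.35 (SE 0.14, interval -0.65 to -0.06, limma adjusted p = 0.336), with -0.32 and -0.37 within the baths. The second probe of Cd3e, well above the background on all arrays, gave a difference of 0.025 (SE 0.18), and thus the probes of the gene disagreed. The second probe of Cd8a, above the background on 5 arrays, differed by 0.10 (SE 0.24). Over the 10 genes, 5 differences were above 0 (52.1% of probes), and none was separated between the groups (2.38% of probes were wholly higher in Pxr-/- and 3.01% wholly lower). Markers of all leukocytes were below 0 for 8 of 8 genes (median -0.40, none called), and their part in these values was not tested. Without the near-identical arrays the values were 0.79 for Ccl5 (SE 0.50), 0.62 for Cd8a (SE 0.37) and -0.36 for Cd3e (SE 0.15), and no gene was called (0% of probes). Cd3e was then again the sole gene with an unadjusted p under 0.05 (10.1% of probes), and 5 of 10 differences were above 0 (52.7% of probes).

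Between genotypes under PCN, no gene was called (0% of all probes) and no unadjusted p of the used probes was under 0.05 (3.28% of probes). Cd8a differed by 0.53 (SE 0.37), Ccl5 by 0.50 (SE 0.62) and Cd5 by 0.43 (SE 0.34), 6 of 10 were above 0 (53.2% of probes), and no gene was separated between the groups (0.754% of probes were wholly higher in Pxr-/- and 0.723% wholly lower). Without the near-identical arrays, these were 0.82 (SE 0.48), 1.19 (SE 0.65) and 0.73 (SE 0.45), all higher in Pxr-/-, with 7 of 10 above 0 (53.6% of probes). No member was called (0.0207% of probes were) and none had an unadjusted p under 0.05 (7.56% of probes). This comparison shares its arrays with both PCN comparisons. The interaction, which asks whether PCN acted differently by genotype, called none of the 10 genes with 17 arrays (0% of probes) or with 13 (0.00258%). With 17 arrays 4 of 10 values were above 0 (51.3% of probes) and with 13 arrays 8 of 10 (52.3%). None of the used probes had an unadjusted p under 0.05 in either (5.38% and 2.95% of probes). The largest value was that of Cd5, 0.51 (SE 0.46) with 17 arrays and 0.74 (SE 0.56) with 13. The second probe of Itgae gave an interaction of 0.72 (SE 0.32, unadjusted p under 0.05, limma adjusted p = 0.848), where the used probe gave 0.14 (SE 0.29). Between genotypes under PCN the second probe gave 0.53 (SE 0.23, unadjusted p under 0.05, limma adjusted p = 1.00), where the used probe gave 0.11 (SE 0.21). The second probe of Cd4, above the background on 10 arrays, had the sign opposite to the used probe in 4 of the 5 comparisons, with an interaction of 0.22 (SE 0.18) against -0.08 (SE 0.11).

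**Figure D2:**
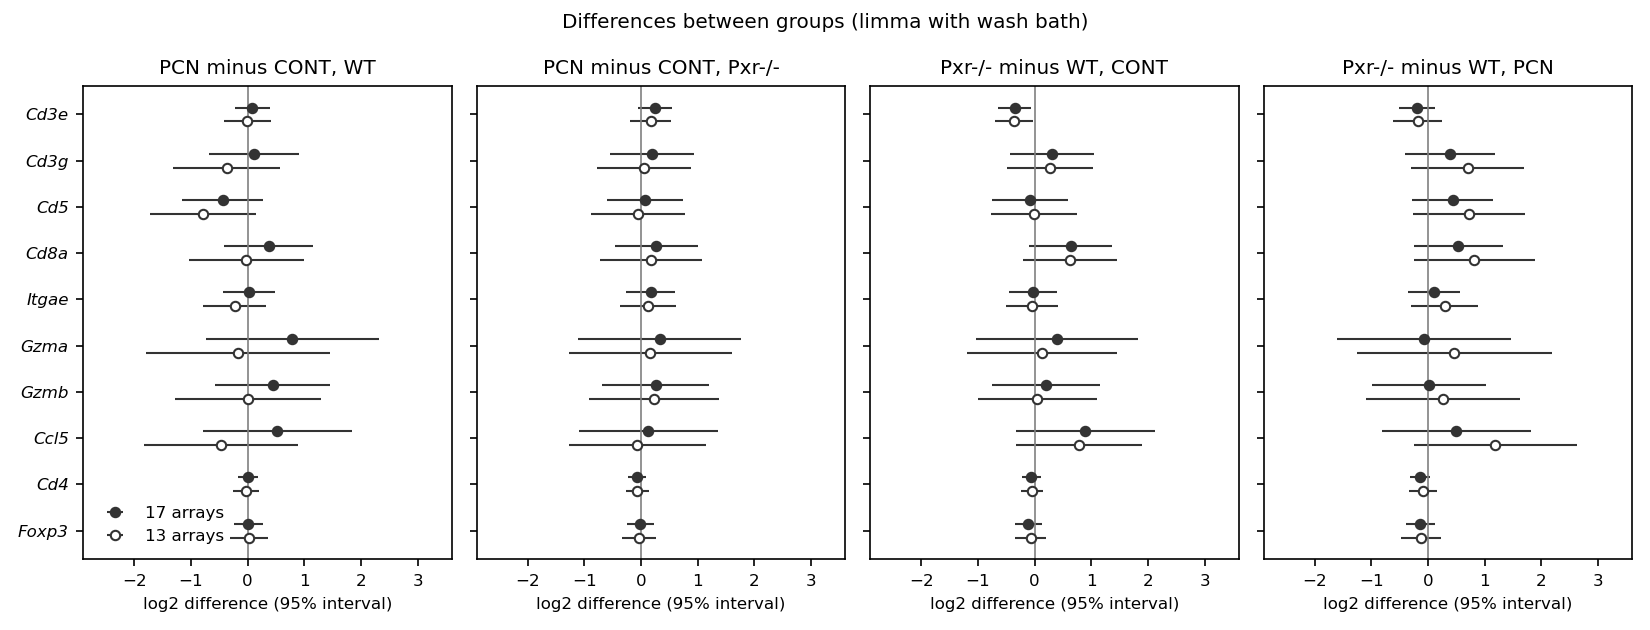
Log2 differences between groups (x axis) for the 10 genes (y axis), with 95% intervals from limma, for 17 arrays (filled) and for 13 arrays without the near-identical ones (open). All intervals include 0 except that of Cd3e between genotypes under CONT.

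Many pairs of the genes varied together from array to array. Over 15 arrays (each near-identical pair averaged to 1), 45 pairs of genes were compared, and 22 correlated positively past an adjusted p of 0.05 (permutation test, 100000 resamples, two-sided, Benjamini-Hochberg over the 45 pairs), with none negative. Gzma and Gzmb had r = 0.936 and rho = 0.950 (permutation p = 1.0e-05, the smallest the resamples can give, adjusted p = 9.0e-05). Without the 2 arrays farthest from the median of Gzma, r was 0.903. It was 0.988 within wash bath 1 and 0.974 within wash bath 2. Cd8a and Ccl5 had r = 0.934 and rho = 0.946 (permutation p = 1.0e-05, adjusted p = 9.0e-05), with 0.919 after the 2 farthest arrays were left out. Cd3g and Ccl5 were the closest pair, with r = 0.959 and rho = 0.979 (permutation p = 1.0e-05, adjusted p = 9.0e-05) and 0.926 without the 2 farthest arrays. In these 3 pairs the arrays lay in nearly the same order for both genes.

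The pairs are described by the genes' roles. All 10 pairs among Cd8a, Itgae, Gzma, Gzmb and Ccl5 were past the threshold, with r between 0.785 and 0.936. None of the 10 pairs of these with Cd4 or Foxp3 was, with r between -0.235 and 0.0960. None of these was past the threshold under the alternatives either, but their range moved, to 0.0498 to 0.349 without Pxr-/- PCN 4, 0.0481 to 0.378 for deviations from group means, 0.125 to 0.604 within wash bath 1 and -0.496 to -0.0484 within wash bath 2. The r of Cd4 with the mean of the 10 genes was 0.185, and 0.572 without the 2 farthest arrays. The used probes of Cd4 and Foxp3 ranged 1.28-fold and 1.5-fold over arrays. The used and the second probe of Cd4 had r = 0.501 and rho = 0.404 with each other. The part of probe noise in the low r of Cd4 and Foxp3 was not tested. Cd4 and Foxp3, both of helper and regulatory cells, had r = 0.615 and rho = 0.557 (permutation p = 0.0149, adjusted p = 0.0318), which fell to 0.516 without the 2 farthest arrays, and rho was not past the threshold (adjusted p = 0.0677). Cd4 and Cd8a had r = -0.235 and rho = 0.0357 (permutation p = 0.400, adjusted p = 0.581), and r = -0.0285 without the 2 farthest arrays. Outside these sets, Cd3g and Cd5 had r = 0.796 and rho = 0.700 (permutation p = 0.000480, adjusted p = 0.00143), and r = 0.666 without the 2 farthest arrays. Cd3e and Cd3g, chains of the same complex, were not past the threshold, with r = 0.430 and rho = 0.339 (permutation p = 0.111, adjusted p = 0.192). Their r was -0.021 within wash bath 1 and 0.737 for deviations from group means. Of the pairs of Cd3e, that with Itgae alone was past the threshold (r = 0.623, permutation test, adjusted p = 0.0289). The roles are those the genes are known for. The arrays at the ends were the same for most genes, as Pxr-/- PCN 4 was among the 3 highest for 8 of the 10 genes, Pxr-/- PCN 3 among the 3 lowest for all 10, and WT PCN 2 among the 3 lowest for 8.
The correlations were as close within groups. When each array's deviation from its group mean was taken in the 13 arrays, which leaves fewer independent values than arrays, 28 of 45 pairs were past the threshold and all 45 were above 0, with a median r of 0.737 against 0.611 for the signals of the same 13 arrays. Without Pxr-/- PCN 4, 18 pairs were past it, among them all 10 pairs of the cytotoxic genes. Without the 4 arrays with high pancreas genes the counts were 24 and 10. Within wash bath 1 (n = 6), 3 pairs were past the threshold, and within bath 2 (n = 7), 6, with median r of 0.604 and 0.602 against 0.550 over all 15 arrays.

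**Figure D3:**
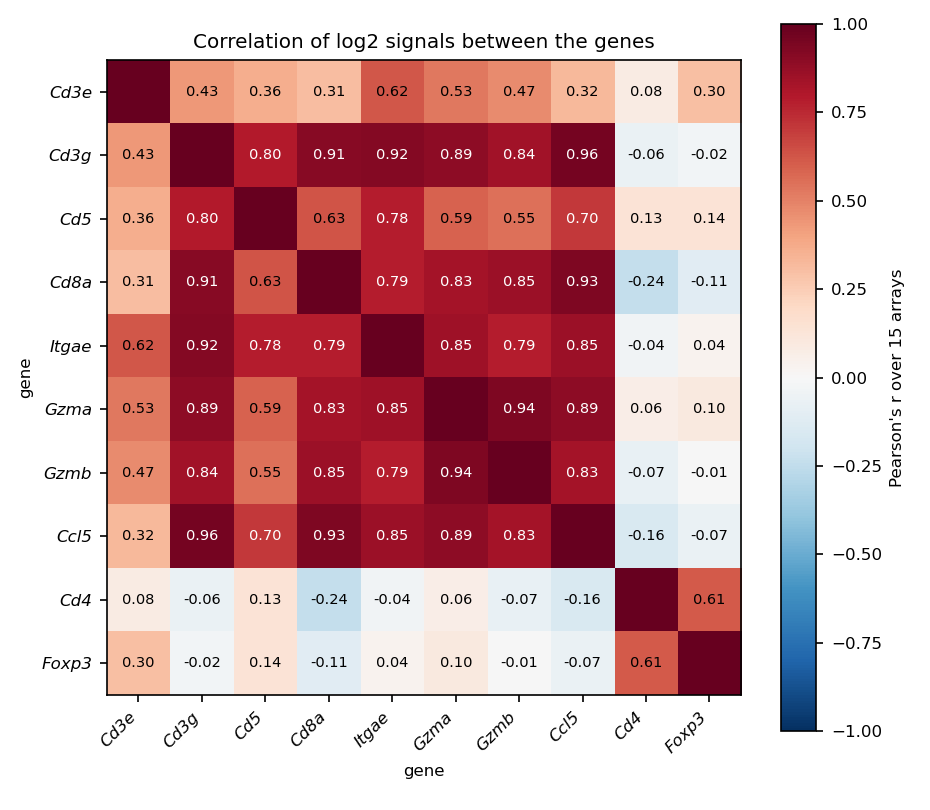
Pearson's r between the log2 signals of each pair of the 10 genes over 15 arrays (colour and number). The square of Cd8a, Itgae, Gzma, Gzmb and Ccl5 holds values of 0.785 to 0.936, and the pairs of these genes with Cd4 and Foxp3 lie between -0.235 and 0.0960.

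**Figure D4:**
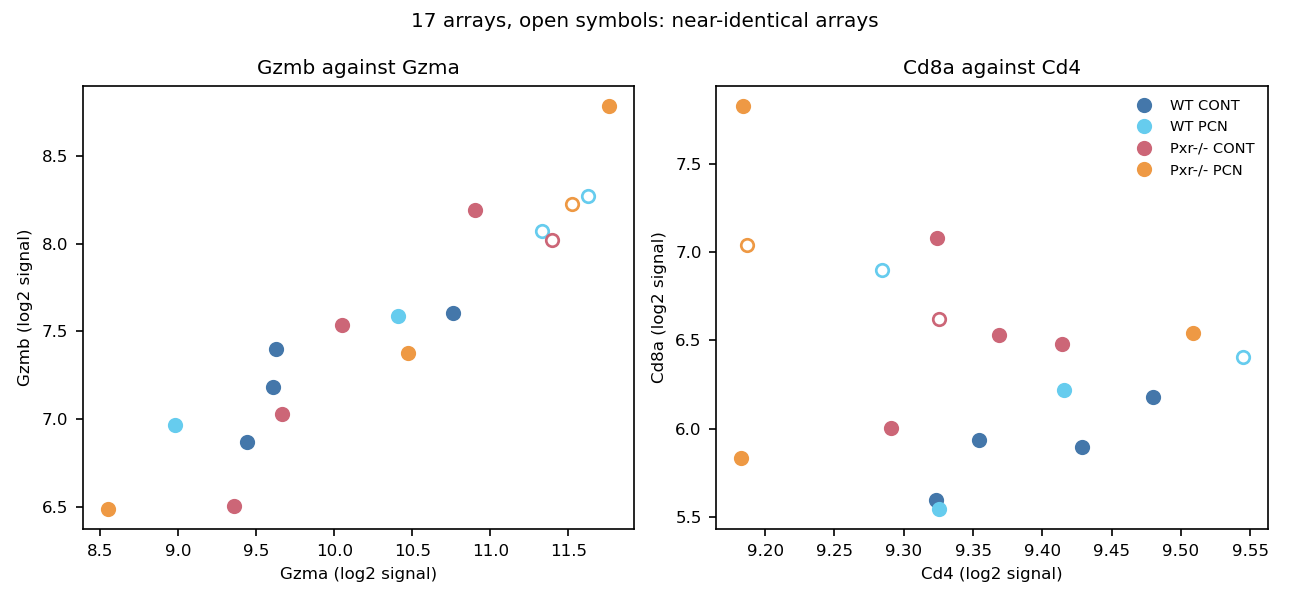
Log2 signals of Gzmb against Gzma (left) and Cd8a against Cd4 (right) on all 17 arrays, coloured by group, open for the near-identical arrays. Gzmb follows Gzma in every group, and Cd8a spreads over 5.55 to 7.83 at Cd4 signals of 9.18 to 9.54.

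Of the 40 genes most like the mean of the 10, 16 were on the wider gene lists described next. Among 24780 other genes over the 15 arrays, the highest r with the mean of the standardized signals were those of Cd3d (0.930), another CD3 chain, Zap70 (0.927), the kinase that CD3 recruits, and, after a transcript named by its identifier (ENSMUST00000103291, 0.904), Tbx21 (0.898), the factor T-bet. Others among the first 10 were NAP030094-1 (0.894), Gbp8 (0.893) and Gbp11 (0.888), both interferon-inducible GTPases, Zmynd15 (0.891) and Cxcl9 (0.880), an interferon-induced chemokine that draws T cells. The gene most like Cd8a was Nkg7 (r = 0.978), a protein of cytotoxic granules, which was also the closest to Ccl5 (0.970) and to Gzma (0.893). Cd6, a receptor related to CD5, was closest to Cd5 (0.963), Zap70 to Itgae (0.926), Gbp11 to Cd3g (0.971) and Ccrl2 to Cd4 (0.823). These values describe 15 arrays that share their normalization, and no test was made of them.

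None of the tested genes on the wider lists was called in any of the 5 comparisons with 17 or with 13 arrays (limma). Of 15 tested genes of the T cell receptor and its proximal signalling, 4 were above 0 for PCN in WT (median -0.05, 1 with an unadjusted p under 0.05) and 11 for PCN in Pxr-/- (median 0.09, 2 with an unadjusted p under 0.05). Without the near-identical arrays the first of these was 3 of 15 (median -0.34) and the second 9 of 15 (median 0.03). With 17 arrays, Thy1 differed by 0.01 and 0.07 in these comparisons, Lck, the kinase that starts the signal, by -0.05 and 0.12, and Cd247, the ζ chain of the receptor complex, by 0.14 and -0.01. Of 13 tested cytotoxic and natural killer genes, 10 were above 0 for PCN in WT (median 0.11), which turned to 3 of 13 without the near-identical arrays (median -0.05), and 9 were above 0 for genotype under CONT (median 0.16). Srgn, the proteoglycan of granules, differed by 0.34 for PCN in WT (0.91 without the near-identical arrays) and by -0.47 for genotype under CONT. Nkg7 differed by 0.47 (-0.15) and 0.63 in the same comparisons, and Ctsw, a protease of cytotoxic cells, by 0.34 (-0.05) and 0.39. Of 11 genes of intraepithelial lymphocytes, 5 were above 0 for PCN in WT (median -0.02), and 4 without the near-identical arrays (median -0.15). Of 12 genes of regulatory T cells 7 were (median 0.02), and 5 without these arrays (median -0.04).
Over the 15 arrays, the mean of the 10 genes had r = 0.893 and rho = 0.932 with the mean of the cytotoxic and natural killer list, and r = 0.820 without the 2 farthest arrays. The values were 0.867, 0.796 and 0.768 for the T cell receptor list and 0.858, 0.814 and 0.83 for the intraepithelial list. For regulatory T cells r was 0.509, for T cell recruitment and retention 0.489, and for helper and innate lymphoid effector genes 0.107. No test was made of these values, since the lists share cells and arrays with the 10 genes.

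For markers of other cells, r with the 10 genes lay between -0.216 (thymocytes) and 0.193 (all leukocytes). Several of these values moved when the 2 farthest arrays were left out. The r of plasma cell genes went from 0.139 to 0.586, that of all leukocytes from 0.193 to 0.364, and that of macrophage and dendritic cell genes from 0.0796 to 0.372. Mast cell genes went from 0.0118 to 0.252, smooth muscle from -0.0542 to 0.205, liver from -0.0544 to 0.306 and colonocytes from -0.205 to 0.192. The B cell list (0.0371 and 0.0553) and the pancreas list (-0.0957 and -0.110) moved little. Of the B cell genes, all 7 tested were below 0 for PCN in WT (median -1.13) and none was called, as were 8 of 8 genes of naive lymphocytes and lymph nodes (median -0.34, none called). For B cell genes, the mean log2 signal was 7.45 to 9.90 in WT CONT, 6.57 to 8.91 in WT PCN, 6.76 to 8.85 in Pxr-/- CONT and 6.71 to 9.20 in Pxr-/- PCN. Ms4a1, which codes for CD20, ranged from 6.45 to 11.55 over arrays. WT PCN 2 and Pxr-/- PCN 4, which lay at opposite ends for the 10 genes, had the 2 lowest means of the B cell list (6.57 and 6.71). The part of lymphoid tissue in the samples was not tested.

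**Figure D5:**
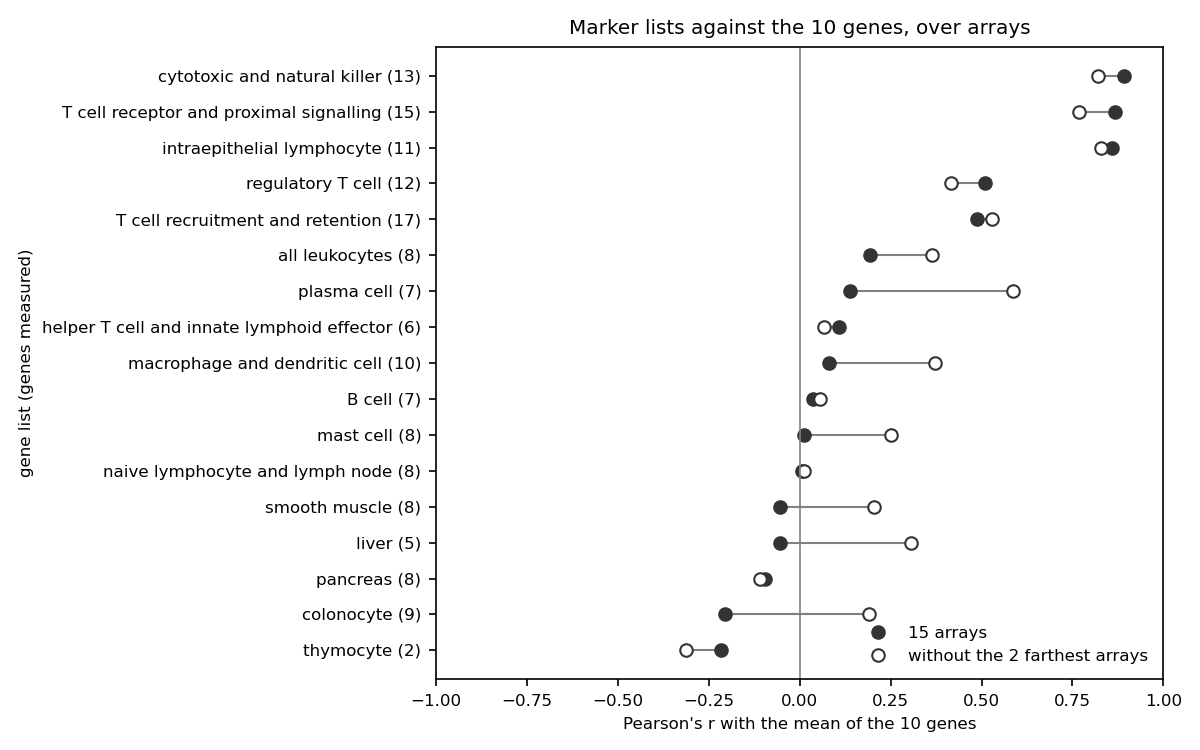
Pearson's r (x axis) of the mean of each marker list with the mean of the 10 genes over 15 arrays (filled) and without the 2 arrays farthest from the median (open), for the lists on the y axis with the number of genes measured. The 3 lists of T cell, cytotoxic and intraepithelial genes lie at 0.858 to 0.893, and the filled points of all lists of B cells, plasma cells, myeloid cells, all leukocytes or tissue lie at 0.193 or below.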

How the data were processed

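Colon RNA of 17 samples was read on 1-colour Agilent arrays. The deposited scanner files give the intensity of each spot (Agilent Feature Extraction 10.10.1.1 per the labels), and the authors also deposited a table of normalized log2 values, used as an alternative. The study's methods name median intensity, CrossNorm, a wash bath correction and limma. CrossNorm could not be repeated from its description, so quantile normalization replaced it. The median intensities of 59305 spots were put on the log2 scale without outlier spots, quantile-normalized and averaged by probe (56605 probes). Of these, 38703 exceeded the background clearly on 4 arrays or more and were fitted in limma 3.58.1 (R 4.3.3) with group and wash bath. Calls needed an FDR up to 0.05 with a fold change over 1.5. Correlations were tested with 100000 permutations, and exactly within a wash bath. The fit was tested on simulated data. P-values measure the spread between these samples, and the number of arrays limits the precision.

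The 10 genes and all gene lists were chosen with earlier results of these data known. Genes named from the wider lists were among the 3 with the highest mean signal on their list, and the most similar genes were taken by r, of which 1 is not reported here. Hoxb13 was chosen after its values were seen. Alternatives were the authors' values, the scanner's processed intensity minus its 75th percentile, normexp with an offset of 50, other filters, no bath term, slide and replicate blocks, fewer arrays, eBayes with trend and 1 probe per gene. Leaving out the arrays with high pancreas genes or low Hoxb13, and correlating deviations from group means, were added after seeing the data.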

Additional observations from a re-analysis of the deposited data

Results flagged for a closer look

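In 3 of the 40 groups of arrays (10 genes in 4 groups), 1 array stood far from the others by Dixon's test, which chance flags in about 1 in 20 groups. Gzma read 10.76 in WT CONT 5, where the nearest array of the group read 9.63. Cd4 read 9.51 in Pxr-/- PCN 1, with the nearest at 9.19. Foxp3 read 5.86 in WT CONT 3, with the nearest at 6.00.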

How the results depend on the processing

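No member was called in any of the 5 comparisons under any alternative (1585 differences of single genes, lowest limma adjusted p = 0.169), and 1460 of these kept their direction, while 125, none past the threshold, changed sign; the cause was not tested except where arrays were left out. No sign changed with the authors' values, the filters, the slide as a random block, eBayes with trend or 1 probe per gene. With the scanner's processed signal, the log2 differences that changed sign were -0.013 (Cd4) and -0.058 (Foxp3) for PCN in WT, 0.0013 (Foxp3) for PCN in Pxr-/-, -0.012 (Gzmb) for genotype under PCN, 0.059 (Foxp3) for the interaction. With normexp, the log2 differences that changed sign were -0.0042 (Cd4) and -0.0099 (Foxp3) for PCN in WT. Without the bath term, the log2 differences that changed sign were -0.0043 (Cd3e), -0.0042 (Cd4) and -0.023 (Foxp3) for PCN in WT, -0.0043 (Gzmb) for genotype under PCN. With the slide as a fixed block, the log2 differences that changed sign were -0.029 (Foxp3) for PCN in WT, -0.27 (Cd3g), -0.80 (Gzma) and -0.48 (Gzmb) for genotype under CONT, -0.060 (Itgae), -0.48 (Gzmb) and -0.0070 (Ccl5) for genotype under PCN, 0.16 (Cd8a), 0.0032 (Gzmb) and 0.016 (Foxp3) for the interaction. Without the 4 near-identical arrays, the log2 differences that changed sign were -0.0077 (Cd3e), -0.37 (Cd3g), -0.026 (Cd4), -0.021 (Cd8a), -0.23 (Itgae), -0.17 (Gzma) and -0.47 (Ccl5) for PCN in WT, -0.069 (Ccl5) and -0.051 (Cd5) for PCN in Pxr-/-, 0.46 (Gzma) for genotype under PCN, 0.20 (Cd8a), 0.33 (Gzma), 0.21 (Gzmb) and 0.40 (Ccl5) for the interaction. Without WT PCN 3 and 4, the log2 differences that changed sign were -0.0077 (Cd3e), -0.37 (Cd3g), -0.026 (Cd4), -0.021 (Cd8a), -0.23 (Itgae), -0.17 (Gzma) and -0.47 (Ccl5) for PCN in WT, 0.88 (Gzma) for genotype under PCN, 0.30 (Cd8a), 0.52 (Gzma), 0.26 (Gzmb) and 0.62 (Ccl5) for the interaction. Without Pxr-/- CONT 2 and Pxr-/- PCN 2, the log2 differences that changed sign were -0.016 (Ccl5) and -0.032 (Cd5) for PCN in Pxr-/-, -0.15 (Gzmb) for genotype under PCN, -0.055 (Cd3g) for the interaction. With the arrays of the contrast alone, the log2 differences that changed sign were -0.089 (Gzmb) for genotype under PCN. The median difference of the members for genotype under CONT became -0.28 with the slide as a fixed block. The replicate numbers did not pair the arrays (15 same-numbered pairs, r of deviations -0.333 to 0.447, 7 above 0.1); with the replicate block the differences that changed sign were -0.030 (Cd4) and -0.061 (Foxp3) for PCN in WT, 0.0037 (Itgae) for genotype under CONT, -0.025 (Gzmb) for genotype under PCN, 0.035 (Foxp3) for the interaction, and no member was called. With each of the 17 arrays left out in turn, the differences whose sign changed ranged for PCN in WT from -0.071 to 0.37 (Cd3g), from -0.044 to 0.039 (Cd4), from -0.11 to 0.076 (Foxp3), from -0.10 to 0.20 (Itgae), for PCN in Pxr-/- from -0.32 to 0.59 (Ccl5), from -0.11 to 0.52 (Cd3g), from -0.13 to 0.29 (Cd5), from -0.11 to 0.60 (Cd8a), from -0.11 to 0.064 (Foxp3), from -0.078 to 0.99 (Gzma), from -0.17 to 0.69 (Gzmb), for genotype under CONT from -0.43 to 0.14 (Cd5), from -0.011 to 0.43 (Gzmb), from -0.18 to 0.089 (Itgae), for genotype under PCN from -0.037 to 1.05 (Ccl5), from -0.56 to 0.71 (Gzma), from -0.34 to 0.53 (Gzmb), from -0.059 to 0.27 (Itgae), for the interaction from -0.95 to 0.13 (Ccl5), from -0.19 to 0.44 (Cd3g), from -0.44 to 0.27 (Cd8a), from -0.11 to 0.086 (Foxp3), from -0.97 to 0.28 (Gzma), from -0.56 to 0.31 (Gzmb), from -0.036 to 0.29 (Itgae). The count of 22 correlated pairs became 3 within wash bath 1 and 6 within wash bath 2, which hold fewer arrays. With 4 or 5 arrays a group, within-group SDs reached 1.06 (Gzma), and the intervals in the report show how wide a range of differences the values allow.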
